A study of Sus scrofa with 6 samples.

Results

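The genes described here are ATF4, DDIT3, TRIB3, CHAC1, ASNS, SESN2, PHGDH, PSAT1, SHMT2 and MTHFD2, which are the transcription factor of the integrated stress response, 5 of its known target genes and 4 enzymes that make serine or pass on its carbon. They were taken by name from the deposited expression values, where all 10 were found among 30477 genes. RNA of the abdominal aorta was sequenced from male Wuzhishan miniature pigs, 3 fed normal chow (NC) and 3 fed a diet high in fat, cholesterol and fructose (HFCF), each for 6 months and with 1 library per pig. The HFCF feed was the chow with shortening, egg yolk powder, cholesterol and fructose added, and the study describes its pigs as a model of atherosclerosis. The sample labels give the age as 3 to 4 months and the methods give an older age at purchase. More pigs were fed than were sequenced, and how the sequenced pigs were chosen is not given in the sources used here. RNA came from aorta tissue and not from separated cells, so fewer cells of a type and less RNA per cell cannot be told apart. Which layers of the wall, and how much surrounding fat, were kept is not given in the sources used here.

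ATF4 is made when the initiation factor eIF2 is phosphorylated by a kinase that senses endoplasmic reticulum stress, lack of amino acids, viral RNA or lack of heme. General protein synthesis then slows, while the ATF4 message is translated better. The level of that message is therefore no measure of its protein, and target genes are the usual readout. ATF4 switches on amino acid transporters, asparagine synthesis and the serine pathway, in which PHGDH, PSAT1 and PSPH turn a glycolytic intermediate into serine. SHMT2 and MTHFD2 then move a carbon of serine onto folate in mitochondria. Serine is also a substrate of serine palmitoyltransferase, the enzyme that opens ceramide synthesis, and ceramide is the lipid the study is about.

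Expression was given as FPKM, fragment counts divided by transcript length and library size, so genes of a library can be set side by side. Between pigs the values are relative to the rest of each library, and FPKM summed to 272207 to 287141 in the NC libraries and 330222 to 338690 in the HFCF libraries. Values with ± are means and SDs over the 3 pigs of a diet. Depths relative to NC pig 1 were taken from the most common ratio of low values between libraries, in genes with 1 transcript. They were 1 to 1.37 in the NC pigs and 1.03 to 1.07 in the HFCF pigs, while absolute depths are unknown. Contractile smooth muscle markers summed to 15910 to 22730 FPKM in the NC pigs and 7997 to 12890 FPKM in the HFCF pigs, so both groups held the labelled tissue, and 6 of 8 were lower (adjusted p under 0.05, limma). Macrophage markers summed to 47.2 to 58.8 FPKM in the NC pigs and 697.5 to 1805 FPKM in the HFCF pigs, and 9 of 10 were higher. HFCF pig 1 stood apart, with 95.1 FPKM of neutrophil markers where HFCF pigs 2 and 3 had 13.7 and 6.37 FPKM, and 2883 FPKM of red blood cell markers where they had 85.6 and 95.5 FPKM. Adipocyte markers ranged from 4.98 FPKM in NC pig 3 to 83.6 and 136.7 FPKM in NC pigs 1 and 2, and from 7.61 to 21.2 FPKM in the HFCF pigs. The part of these differences in the results below was not tested, except where a value is given.

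PHGDH, the first enzyme of serine synthesis, fell with the HFCF diet to 38.3% of its NC mean, and it was the only one of the 10 genes to pass the test with the values as deposited. SESN2, a sensor that restrains mTORC1 when leucine is low, also lay below the lowest NC pig in all 3 HFCF pigs, at 58.3% of the NC mean, but its adjusted p was 0.0567 (limma). The other 8 genes, ATF4 among them, had values in the HFCF pigs that overlapped those of the NC pigs. All 10 genes had a mean of at least 0.1 FPKM and were tested together with the other genes, 15384 in all, on the log2(FPKM + 0.1) scale, which understates the change of low genes. At an adjusted p under 0.05, 22.8% of all tested genes were higher and 6.16% were lower in the HFCF group, against 0 and 1 of the 10 genes (28.9% of all tested genes in either direction). At an unadjusted p under 0.05 the 10 genes gave 0 higher and 2 lower, PHGDH and SESN2, against 4938 higher and 1575 lower of all 15384 tested genes. No overlap between the groups, with the HFCF pigs lower, was found in 2 of the 10 genes and in 12.1% of all tested genes. No overlap with the HFCF pigs higher was found in 0 of the 10 genes and in 36.1% of all tested genes, and 48.2% of them separated in either direction. The median log2 fold change of the 10 genes was -0.13, which is 0.46 below the median of 0.32 over all tested genes, and 9 of the 10 lay below that median. Without NC pig 2 the median of the 10 genes was 0.03. By the thresholds of the study, a fold change above 2 or below 0.5 with an unadjusted p under 0.05, PHGDH was the only one of the 10 genes called, while 20.7% of all tested genes were called higher and 4.82% lower (25.5% together). The balance of higher and lower calls over all tested genes depended on the scaling. There were 3505 higher and 948 lower as deposited, and 2229 and 1527 once rescaled to TPM. Median-ratio scaling gave 2033 and 1968, and quantile normalization 1748 and 1782.

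**Figure D1:**
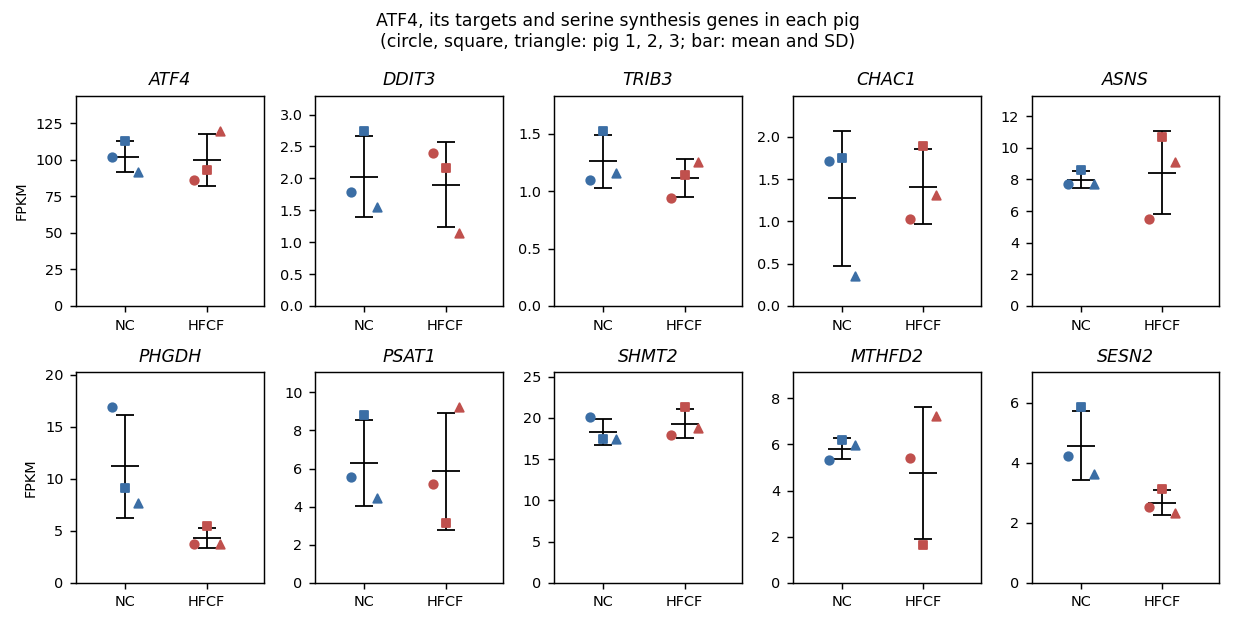
Expression of the 10 genes in FPKM (vertical axes, starting at 0) in the 3 NC and 3 HFCF pigs, with circles, squares and triangles for pigs 1, 2 and 3 and bars for the mean and SD of each group. The groups separate in the panels of PHGDH and SESN2 and overlap in the other 8.

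ATF4 itself was the most abundant of the 10 genes. It had 101.8, 112.9 and 91.6 FPKM in NC pigs 1 to 3 and 86.3, 92.6 and 119.8 FPKM in HFCF pigs 1 to 3. Both the highest and the lowest value came from an HFCF pig, so the spread within that diet covered all the NC pigs. Its log2 fold change was -0.04 (95% interval -0.45 to 0.36, adjusted p = 0.865, limma).

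DDIT3, which encodes the transcription factor CHOP and is linked to cell death under prolonged stress, had 1.78, 2.75 and 1.55 FPKM in the NC pigs and 2.40, 2.16 and 1.14 FPKM in the HFCF pigs. HFCF pig 3 was the lowest and NC pig 2 the highest. The log2 fold change of -0.11 had a 95% interval of -0.94 to 0.72 (adjusted p = 0.837, limma). TRIB3, a pseudokinase that feeds back on ATF4 and CHOP, was at 1.10, 1.53 and 1.16 FPKM in the NC pigs and 0.939, 1.15 and 1.26 FPKM in the HFCF pigs. All 6 values lay close together, and its log2 fold change was -0.16 (95% interval -0.76 to 0.44, adjusted p = 0.671, limma). CHAC1, an enzyme that breaks down glutathione, had 1.72, 1.76 and 0.353 FPKM in the NC pigs and 1.03, 1.89 and 1.31 FPKM in the HFCF pigs. NC pig 3 was far below the other 5 pigs, and the log2 fold change turned from 0.35 (95% interval -1.01 to 1.72) to -0.32 without it, and to -0.31 by quantile normalization. CHAC1 was not called with or without NC pig 3 (adjusted p = 0.679 and 0.502, limma).

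ASNS, which makes asparagine and is among the best known ATF4 targets, had 7.69, 8.604 and 7.687 FPKM in the NC pigs and 5.53, 10.7 and 9.10 FPKM in the HFCF pigs. The HFCF values lay on both sides of the tight NC values. Its log2 fold change was 0.03 (95% interval -0.57 to 0.63, adjusted p = 0.944, limma), and it turned negative with each of the 3 other scalings. SESN2 had 4.22, 5.85 and 3.64 FPKM in the NC pigs and 2.54, 3.13 and 2.32 FPKM in the HFCF pigs. Each HFCF pig was below the lowest NC pig. The means were 4.57 ± 1.15 and 2.66 ± 0.419 FPKM (SD, n = 3 each). The log2 fold change of -0.74 had a 95% interval of -1.31 to -0.17 and lay 1.06 below the median of all genes. SESN2 was called when the values were rescaled, with log2 fold changes of -1.09 by median-ratio scaling, -1.23 by quantile normalization and -1.01 as TPM (adjusted p = 0.0171, 0.0142 and 0.022, limma).

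PHGDH had 16.9, 9.09 and 7.69 FPKM in the NC pigs and 3.74, 5.43 and 3.70 FPKM in the HFCF pigs. NC pig 1 stood well above the other NC pigs, and the highest HFCF pig was still below the lowest NC pig. The means were 11.2 ± 4.95 and 4.29 ± 0.989 FPKM (SD, n = 3 each). On the log2 scale this was a difference of -1.30 with a standard error of 0.32 (95% interval -2.06 to -0.55, adjusted p = 0.0239, limma). Of all tested genes, 3.65% had a lower log2 fold change. The call was lost without NC pig 1, NC pig 2, HFCF pig 1 or HFCF pig 3, with log2 fold changes of -0.97, -1.41, -1.22 and -1.21 and adjusted p of 0.0515, 0.0533, 0.0697 and 0.0653 (limma). The other 11 of 15 alternatives kept it, and over all 15 the log2 fold change stayed between -1.66 and -0.97.

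PSAT1, the aminotransferase of the second step, had 5.57, 8.81 and 4.47 FPKM in the NC pigs and 5.19, 3.14 and 9.21 FPKM in the HFCF pigs. HFCF pigs 2 and 3 were the lowest and the highest of all 6. The log2 fold change was -0.18 (95% interval -1.17 to 0.81, adjusted p = 0.778, limma). SHMT2, the mitochondrial serine hydroxymethyltransferase, was the steadiest of the 4 enzymes, with 20.2, 17.4 and 17.4 FPKM in the NC pigs and 17.9, 21.3 and 18.8 FPKM in the HFCF pigs. Its log2 fold change of 0.07 (95% interval -0.26 to 0.41, adjusted p = 0.727, limma) turned to -0.28, -0.09 and -0.19 by median-ratio scaling, by quantile normalization and as TPM. MTHFD2, the mitochondrial folate enzyme that follows SHMT2, had 5.31, 6.21 and 5.96 FPKM in the NC pigs and 5.40, 1.62 and 7.22 FPKM in the HFCF pigs. HFCF pig 2, which also had the lowest PSAT1, stood far below the other 5, and without it the log2 fold change of MTHFD2 went from -0.53 (95% interval -1.72 to 0.67, adjusted p = 0.467, limma) to 0.10. HFCF pig 2 was not low in all of these genes, since it had the highest ASNS, CHAC1 and SHMT2 of the 6 pigs.

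**Figure D2:**
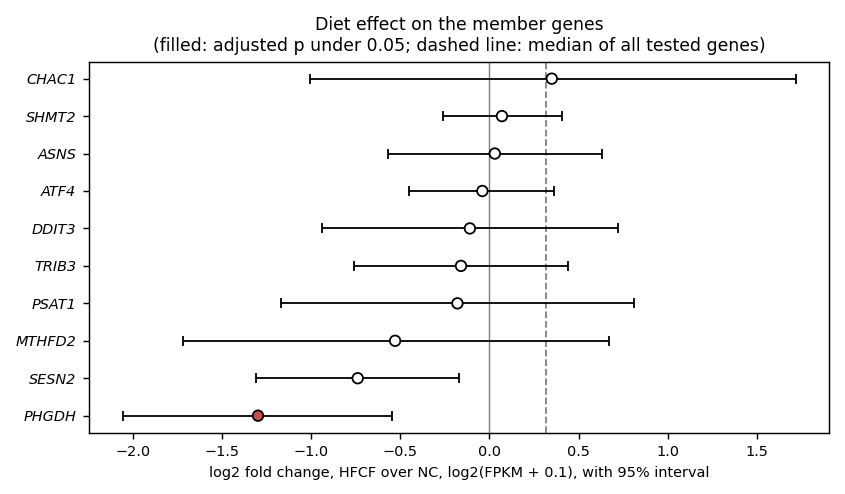
Log2 fold change of each of the 10 genes between the HFCF and NC groups (horizontal axis, log2(FPKM + 0.1) scale) with its 95% interval from limma. The solid line marks 0 and the dashed line the median of all tested genes at 0.32, and PHGDH at -1.30 is the filled point with an adjusted p under 0.05.

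**Figure D3:**
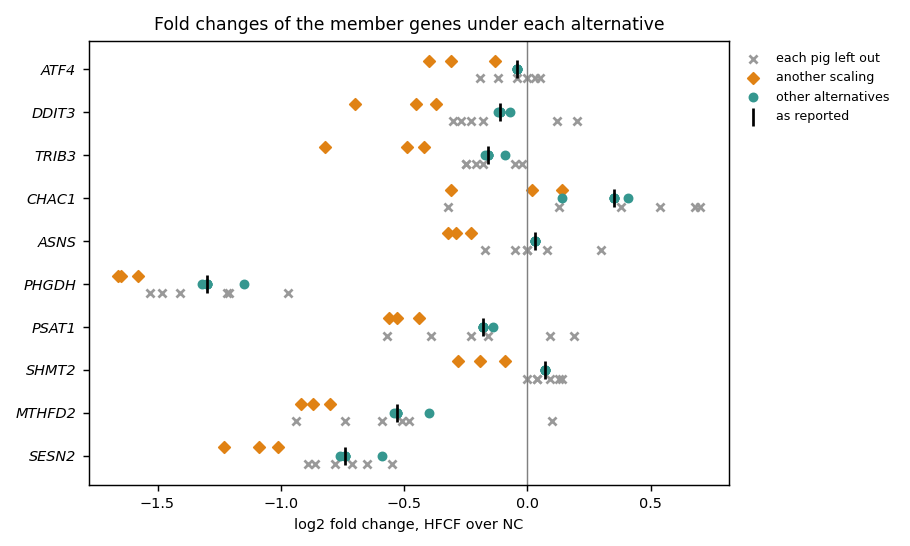
Log2 fold changes of the 10 genes (horizontal axis) as reported and under each of 15 alternatives, coloured by kind. PHGDH stays between -1.66 and -0.97, SESN2 between -1.23 and -0.55 and TRIB3 between -0.82 and -0.02, and the other 7 genes cross 0 in at least 1 alternative.

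In the NC pigs the levels ran, from high to low, ATF4, SHMT2, PHGDH, ASNS, PSAT1, MTHFD2, SESN2, DDIT3, CHAC1 and TRIB3, with means from 102.1 to 1.26 FPKM. The ranges of neighbours did not overlap between ATF4 and SHMT2, between SHMT2 and PHGDH and between SESN2 and DDIT3, while the other neighbours overlapped. In the HFCF pigs PHGDH moved from rank 3 to rank 6, below ASNS, PSAT1 and MTHFD2, and the other genes kept their order. Neighbours were separate in the HFCF pigs between ATF4 and SHMT2, between SHMT2 and ASNS, and between PHGDH and SESN2.

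Ratios of genes within a library do not change when a library is multiplied by 1 factor, though quantile normalization can change them. PHGDH over SHMT2 was 0.837, 0.522 and 0.441 in the NC pigs, against 0.209, 0.255 and 0.197 in the HFCF pigs, without overlap. PHGDH over PSAT1, the enzyme that takes up its product, was 3.03, 1.03 and 1.72 in the NC pigs, against 0.721, 1.73 and 0.402 in the HFCF pigs, so HFCF pig 2 reached the NC range. PHGDH over ATF4 was 0.166, 0.0806 and 0.084 in the NC pigs, against 0.0433, 0.0586 and 0.0309 in the HFCF pigs, and SESN2 over ATF4 was 0.0397 to 0.0518 and 0.0194 to 0.0338, both without overlap. The level of DDIT3 relative to ATF4 overlapped between the groups, with means of 0.0196 and 0.0202, as did those of TRIB3 (0.0123 and 0.0113) and ASNS (0.0786 and 0.0852). With 3 pigs against 3, an exact permutation test of such a ratio cannot give a two-sided p below 0.1.

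Since the summed level of the smooth muscle markers was lower in every HFCF pig, the same genes were also set against that sum. PHGDH had 0.742, 0.498 and 0.483 FPKM for each 1000 FPKM of smooth muscle markers in the NC pigs and 0.468, 0.570 and 0.287 FPKM in the HFCF pigs, and the groups overlapped. SESN2 had 0.186, 0.320 and 0.229 FPKM for each 1000 FPKM in the NC pigs and 0.318, 0.328 and 0.180 FPKM in the HFCF pigs, which also overlapped. The marker sum of the HFCF pigs was 0.535 of that of the NC pigs, so a gene with equal FPKM in both groups comes out higher on this scale. No overlap with the HFCF pigs higher was found here in 61.8% of all tested genes and in 5 of the 10 genes (ATF4, TRIB3, CHAC1, ASNS and SHMT2). No overlap with the HFCF pigs lower was found in 1.55% of all tested genes and in 0 of the 10. Which cells held these transcripts was not tested.

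The relatives of the 10 genes did not all follow the same pattern. SESN3, like SESN2 a sestrin, rose from 3.11 ± 0.790 to 9.43 ± 0.807 FPKM (adjusted p = 0.0033, limma), and its lowest HFCF value was above its highest NC value. Its level relative to SESN2 was 0.624, 0.457 and 1.10 in the NC pigs, against 3.51, 3.31 and 3.88 in the HFCF pigs, so SESN2 was the higher of the pair in NC pigs 1 and 2 and SESN3 in NC pig 3 and all HFCF pigs. The separation of this ratio follows from SESN3 being higher and SESN2 lower in every HFCF pig. SESN1, the most abundant sestrin, was 19.5 ± 0.965 and 20.1 ± 8.99 FPKM. TRIB2 was 9.33 ± 1.34 and 7.21 ± 1.47 FPKM and TRIB1 was 8.07 ± 8.59 and 8.35 ± 2.80 FPKM, both above TRIB3. CHAC2 stayed under 1 FPKM in all pigs. With the values as deposited, none of SESN1, TRIB1, TRIB2 and CHAC2 was called. TRIB2 was called only after median-ratio scaling (log2 fold change -0.73, adjusted p = 0.0319, limma) and quantile normalization (-0.68, adjusted p = 0.0481), and TRIB1 only without NC pig 2 (1.38, adjusted p = 0.0497).

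Among 35 other genes commonly described as ATF4 targets, 34 were matched and 33 tested, of which 8 were higher, 2 lower and 23 not called. Of all tested genes 22.8% were higher and 6.16% lower, so these counts were near the background. The median log2 fold change of the 33 was 0.24, which is 0.08 below that of all tested genes. CEBPB, a transcription factor of inflammation and fat cell differentiation, rose from 30.7 ± 9.97 to 95.9 ± 22.1 FPKM (log2 fold change 1.67, adjusted p = 0.00641, limma). VEGFA, the endothelial growth factor, rose from 6.67 ± 0.996 to 18.6 ± 5.79 FPKM (log2 fold change 1.42, adjusted p = 0.00995, limma). ATF5, a paralogue of ATF4, rose from 5.82 ± 2.31 to 13.3 ± 2.65 FPKM (log2 fold change 1.24, adjusted p = 0.0296, limma), and lost its call with the 3 other scalings and without NC pig 2 or any one of the HFCF pigs (adjusted p = 0.0549 to 0.0952). ATF3 was 10.1 ± 6.37 and 33.1 ± 30.4 FPKM, with 68.1 FPKM in HFCF pig 1 and 15.1 and 15.9 FPKM in HFCF pigs 2 and 3, and was not called (log2 fold change 1.54, adjusted p = 0.139, limma). CEBPG, the usual partner of ATF4 at its sites, had a log2 fold change of -0.14, and PPP1R15A, the phosphatase subunit that ends the response, 0.66 (adjusted p = 0.715 and 0.311, limma).

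Of 8 amino acid transporters in that list 7 were tested, and 1 was higher, 2 lower and 4 not called (SLC3A2, SLC1A4, SLC1A5 and SLC6A9). All tested genes gave 22.8% higher and 6.16% lower, and 7 genes are too few to set apart from that background. SLC38A2, which brings in small neutral amino acids such as alanine and serine, rose from 14.3 ± 3.44 to 35.9 ± 6.16 FPKM (log2 fold change 1.33, adjusted p = 0.00594, limma). SLC7A5, the light chain of the leucine transporter, fell from 4.21 ± 0.260 to 1.54 ± 0.406 FPKM (log2 fold change -1.42, adjusted p = 0.00692, limma). SLC7A1, the arginine and lysine transporter, fell from 7.38 ± 1.01 to 2.69 ± 0.274 FPKM (log2 fold change -1.42, adjusted p = 0.00302, limma). The ratio of SLC38A2 to SLC7A5 was 2.74 to 4.64 in the NC pigs and 21.9 to 26.9 in the HFCF pigs. The pair was named for large changes in opposite directions, so this separation follows from the choice and adds no further evidence. CEBPB, SESN3, VEGFA, SLC38A2, SLC7A5 and SLC7A1 kept their calls in all 15 alternatives. Without NC pig 3, 4 genes of the list were lower in place of 2.

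Of the 17 genes of the eIF2 arm, 15 were matched and tested, and 1 was higher, 0 lower and 14 not called, beside 22.8% higher and 6.16% lower over all tested genes. Their median log2 fold change was 0.10. At an unadjusted p under 0.05, 2 were higher and 1 lower, beside 4938 higher and 1575 lower of all 15384 tested genes. EIF2AK2, the kinase PKR that senses double-stranded RNA and is induced by interferon, had 0.921, 0.972 and 1.56 FPKM in the NC pigs and 5.74, 4.51 and 6.57 FPKM in the HFCF pigs, with no overlap. This rise (log2 fold change 2.21, adjusted p = 0.00255, limma) kept its call in all 15 alternatives. EIF2AK3, the kinase PERK of the endoplasmic reticulum, was 4.70 ± 0.173 and 5.32 ± 0.338 FPKM, and EIF2AK4, the kinase GCN2 that senses uncharged tRNA, was 3.83 ± 0.440 and 5.09 ± 0.964 FPKM. Neither was called, and the log2 fold change of EIF2AK3 turned from 0.17 to -0.18, -0.22 and -0.08 under the 3 other scalings. Without HFCF pig 1, 2 genes of the eIF2 arm were higher in place of 1.

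**Figure D4:**
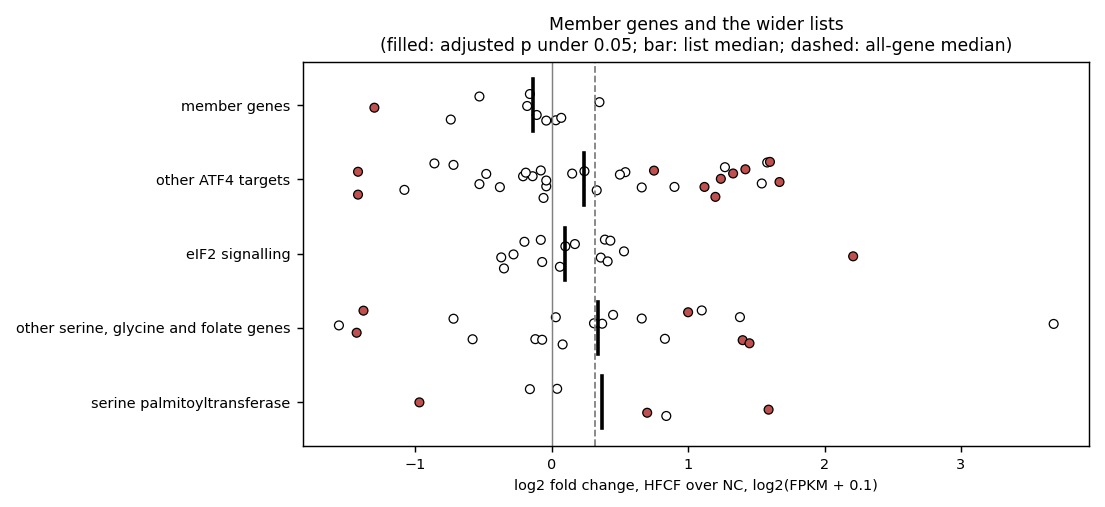
Log2 fold changes (horizontal axis) of the tested genes of each list, 10 member genes, 33 other ATF4 targets, 15 genes of eIF2 signalling, 20 other serine, glycine and folate genes and 6 genes around serine palmitoyltransferase. Filled points have an adjusted p under 0.05, the thick bars are list medians and the dashed line is the median of all tested genes at 0.32.

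The rest of the serine, glycine and folate pathway held 26 genes, of which 23 were matched and 20 tested, and 3 were higher, 2 lower and 15 not called, where all tested genes gave 22.8% and 6.16%. Their median log2 fold change of 0.34 was 0.02 above that of all tested genes. PSPH, the last enzyme of serine synthesis, was the scarcest of the 3 steps, with 0.746, 0.675 and 0.704 FPKM in the NC pigs and 0.906, 1.09 and 0.859 FPKM in the HFCF pigs. Its HFCF values were all higher, and a log2 fold change of 0.37 that was not called (adjusted p = 0.297, limma) turned to -0.29 after quantile normalization. PSPH over PHGDH was 0.0442 to 0.0915 in the NC pigs and 0.201 to 0.242 in the HFCF pigs. This separation follows from PSPH being higher and PHGDH lower in every HFCF pig. SHMT1 is the cytosolic counterpart of SHMT2 and had 1.59, 2.63 and 0.469 FPKM in the NC pigs. In the HFCF pigs it had 2.09, 0.878 and 0.849 FPKM. Its lowest value came from NC pig 3, the pig with the lowest adipocyte markers. Among the HFCF pigs, the lowest SHMT1 was in HFCF pig 3, which had the highest adipocyte markers of that diet (21.2 FPKM). The mitochondrial folate enzyme MTHFD1L was 5.57 ± 1.61 and 3.38 ± 1.15 FPKM (log2 fold change -0.72, adjusted p = 0.125, limma). It was called only after median-ratio scaling (log2 fold change -1.07, adjusted p = 0.0441, limma) and quantile normalization (-1.19, adjusted p = 0.0498). MTHFD2L, the relative of MTHFD2, stayed under 1 FPKM and was not called (adjusted p = 0.229, limma).

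ALDH1L2, which oxidises the formyl group of mitochondrial folate, rose from 5.37 ± 0.536 to 11.1 ± 3.01 FPKM (adjusted p = 0.0168, limma). SFXN1, a carrier of serine into mitochondria, rose from 1.06 ± 0.215 to 3.04 ± 1.11 FPKM (log2 fold change 1.40, adjusted p = 0.0169, limma). Its relative SFXN3 fell from 11.8 ± 4.82 to 4.48 ± 1.64 FPKM (log2 fold change -1.38, adjusted p = 0.0335, limma). FPGS, which adds glutamates to folate and so keeps it in the cell, fell from 15.4 ± 1.21 to 5.69 ± 0.750 FPKM (log2 fold change -1.43, adjusted p = 0.00205, limma). GGH, the lysosomal enzyme that removes those glutamates, rose from 1.37 ± 0.233 to 3.93 ± 0.9503 FPKM (log2 fold change 1.45, adjusted p = 0.00743, limma). FPGS and GGH kept their calls in all 15 alternatives. ALDH1L2 and SFXN1 lost theirs without NC pig 1 (adjusted p = 0.0651 and 0.0637, limma), by quantile normalization (0.058 and 0.0824) and with the replicate number as a block (0.0529 and 0.0564). ALDH1L2 also lost its call by median-ratio scaling (adjusted p = 0.0597, limma). SFXN3 lost its call without NC pig 1, NC pig 3, HFCF pig 1 or HFCF pig 3 (adjusted p = 0.0627 to 0.0863), with no filter (0.0545), without a variance trend (0.0505) and with the replicate number as a block (0.0877), 7 of 15 alternatives in all. The count of higher genes in this list went from 3 to 1 without NC pig 1, and that of lower genes from 2 to 1 without NC pig 1, HFCF pig 1 or HFCF pig 3.

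**Figure D5:**
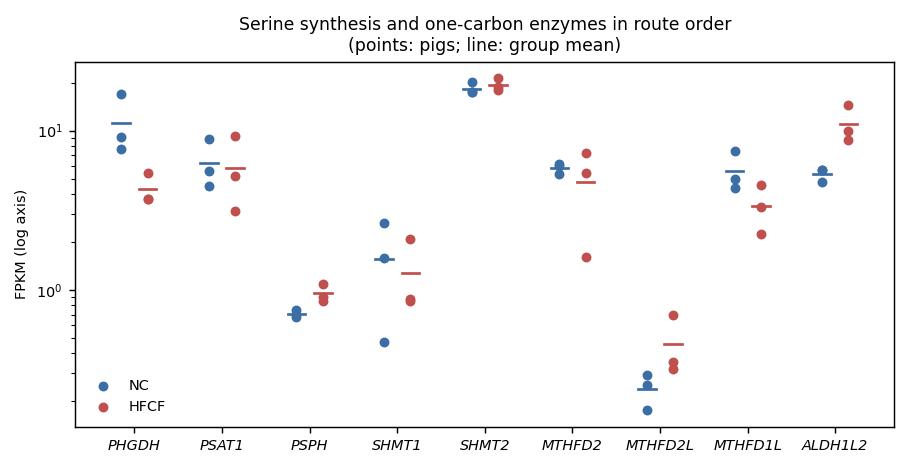
FPKM (log axis) of the enzymes of serine synthesis and of the folate steps that follow, in route order, with NC pigs in blue, HFCF pigs in red and lines at the group means. PHGDH is lower in all HFCF pigs (means 11.2 and 4.29 FPKM), ALDH1L2 is higher (5.37 and 11.1 FPKM), PSPH and MTHFD2L do not overlap but were not called, and PSAT1, SHMT1, SHMT2, MTHFD2 and MTHFD1L overlap.

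Of 9 genes around serine palmitoyltransferase, which joins serine to palmitoyl-CoA, 8 were matched and 6 tested, and 2 were higher, 1 lower and 3 not called (22.8% and 6.16% of all tested genes), too few genes to set apart from that background. Their median log2 fold change of 0.37 was 0.05 above that of all tested genes. SPTLC1, a core subunit, rose from 6.57 ± 1.05 to 10.7 ± 1.12 FPKM (log2 fold change 0.70, adjusted p = 0.0279, limma). It lost its call in 8 of 15 alternatives, among them the 3 other scalings and without NC pig 1, NC pig 3, HFCF pig 1 or HFCF pig 2 (adjusted p = 0.0598 to 0.157). SPTLC2, the catalytic partner, was 7.51 ± 1.92 and 7.60 ± 1.06 FPKM, and SPTLC3 had a mean under 0.1 FPKM and was not tested. The ORMDL proteins restrain this enzyme, and the 2 that were called moved in opposite directions. ORMDL1 was 4.38 ± 1.36 and 7.63 ± 0.458 FPKM, higher in every HFCF pig without overlap. It was not called (log2 fold change 0.84, adjusted p = 0.0505, limma). ORMDL2 rose from 6.201 ± 0.4834 to 18.9 ± 0.213 FPKM (log2 fold change 1.59, adjusted p = 0.000903, limma), and kept its call in all 15 alternatives. ORMDL3 fell from 6.48 ± 0.480 to 3.34 ± 0.955 FPKM (log2 fold change -0.97, adjusted p = 0.0218, limma). It lost its call without NC pig 1, NC pig 2 or HFCF pig 2 (adjusted p = 0.0633 to 0.0804, limma), and also with the replicate number as a block. The count of higher genes in this list went from 2 to 1 without NC pig 1, NC pig 3, HFCF pig 1 or HFCF pig 2, and that of lower genes from 1 to 0 without NC pig 1, NC pig 2 or HFCF pig 2.

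Profiles over the 6 pigs were also compared with those of ATF4 and PHGDH among 9582 genes with a name of their own and a mean of at least 1 FPKM, by the mean absolute difference of centred log2 values. The closest to ATF4 were UTP4 (0.027), SERPING1 (0.036) and NOL9 (0.036), of which UTP4 and NOL9 act in ribosome assembly and SERPING1 encodes the C1 inhibitor. The closest to PHGDH were PLXNA4 (0.147), RTL5 (0.186) and ZNF628 (0.192). PLXNA4, a semaphorin receptor, had 12.5, 7.22 and 6.52 FPKM in the NC pigs and 2.59, 3.43 and 3.32 FPKM in the HFCF pigs. It was picked for its closeness to PHGDH, so the shared peak in NC pig 1 follows from the choice. Whether any of these genes is linked to ATF4 or PHGDH, or shares a function with it, was not tested.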

How the data were processed

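Libraries of abdominal aorta RNA from 6 pigs were compared. The authors trimmed the reads with cutadapt 1.9, used HISAT2 for alignment and StringTie for assembly and levels, and deposited an FPKM value for each gene and pig. The build in the methods is older than that of the gene tables here, so no coordinates are given. An FPKM value is relative to the rest of its library. A listed 0.0001 was read as 0.

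Genes whose mean FPKM over all pigs reached 0.1 were tested as log2(FPKM + 0.1). The test was limma 3.58.1 run in R 4.3.3 (diet as the factor, eBayes with a trend), with Benjamini-Hochberg adjustment over all 15384 tested genes and two-sided p. The fit was tested on simulated data. Labels do not say more than that the pigs were separate samples, so p-values measure the spread between them. No step of the fit dropped or imputed a pig.

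List genes were matched by name, or by gene ID for CBS, SLC25A32, MS4A1 and ACTA1. The 10 genes and all lists were chosen with earlier results of these data known. Named from the lists were fixed relatives of the 10 genes and up to 4 called genes per direction with the largest change and a mean of at least 1 FPKM. Alternatives were other pseudocounts, filters, scalings and variance models, a replicate block and each pig left out. No sequences were used here.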

Additional observations from a re-analysis of the deposited data

How the results depend on the processing

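With the values as deposited, 0 of the 10 genes were higher, and this count was 0 in all 15 alternatives. The count of lower genes was 1, PHGDH. It was 2, with SESN2 added, when the filter was a mean of at least 1 FPKM (SESN2 adjusted p = 0.0475, limma) and after median-ratio scaling, quantile normalization and rescaling to TPM, and it was 0 to 1 when pigs were left out in turn. The median log2 fold change of the 10 genes was -0.13 and moved to -0.47, -0.63 and -0.40 with these 3 scalings, which shift all genes, and it ran from -0.30 to 0.03 when pigs were left out in turn.

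Signs of genes that were not called changed as follows. Median-ratio scaling, quantile normalization and rescaling to TPM gave ASNS -0.32, -0.29 and -0.23, SHMT2 -0.28, -0.09 and -0.19, EIF2AK3 -0.18, -0.22 and -0.08, and SPTLC2 -0.31, -0.28 and -0.22. Quantile normalization gave CHAC1 -0.31, EIF2AK4 -0.03 and PSPH -0.29. With each pig left out in turn, log2 fold changes lay between -0.19 and 0.05 for ATF4, -0.30 and 0.20 for DDIT3, -0.32 and 0.70 for CHAC1, -0.17 and 0.30 for ASNS, -0.57 and 0.19 for PSAT1, -0.94 and 0.10 for MTHFD2, -0.36 and 0.07 for CEBPG, -0.07 and 1.38 for TRIB1, -0.38 and 0.31 for SESN1, -0.76 and 0.37 for SHMT1, and -0.19 and 0.16 for SPTLC2.

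Among the other ATF4 targets, 5 in place of 8 were higher after quantile normalization, and 6, 4 and 5 in place of 2 were lower after median-ratio scaling, quantile normalization and rescaling to TPM (2 to 4 with each pig left out). In eIF2 signalling, 3, 3 and 1 in place of 0 were lower with these scalings, and 1 to 2 were higher with each pig left out. Of the serine, glycine and folate genes, 1 in place of 3 was higher and 4 in place of 2 were lower after quantile normalization, 1 was lower with no filter and without a variance trend, and with each pig left out 1 to 4 were higher and 1 to 2 lower. Around serine palmitoyltransferase, 1 in place of 2 was higher with each of the 3 scalings, and with each pig left out 1 to 2 were higher and 0 to 1 lower. CHAC2, PSPH and MTHFD2L give no value with the filter at 1 FPKM. The causes were not tested.

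The replicate numbers of the labels are shared by the diets, but pigs with the same number did not deviate together (correlations across genes of 0.0206, -0.0795 and -0.0724), so the block is given only as an alternative. With the replicate block, PHGDH kept its call (adjusted p = 0.049, limma). SFXN3, ALDH1L2, SFXN1 and SPTLC1 lost theirs (adjusted p = 0.0877, 0.0529, 0.0564 and 0.0703, limma), as did ORMDL3. All tested genes gave 2232 higher and 540 lower in place of 3505 and 948. The serine, glycine and folate genes gave 1 higher and 1 lower, and the serine palmitoyltransferase genes 1 higher and 0 lower.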

Other observations

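Some genes of the wider lists fell outside the rule for naming and were chosen after their values were seen. SDS, the serine dehydratase that turns serine into pyruvate, had 0.140, 0.239 and 0.489 FPKM in the NC pigs and 49.2, 0.949 and 1.84 FPKM in the HFCF pigs. HFCF pig 1, the pig with the highest macrophage, neutrophil and red blood cell markers, carried most of that level, and SDS was not called (log2 fold change 3.68, 95% interval 0.52 to 6.84, adjusted p = 0.079, limma). PCK2, the mitochondrial phosphoenolpyruvate carboxykinase, had 12.2 FPKM in HFCF pig 1 against 5.41 and 3.31 FPKM in HFCF pigs 2 and 3 and 2.23 to 2.93 FPKM in the NC pigs (adjusted p = 0.0708, limma).

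ALDH1L1, the cytosolic formyl folate dehydrogenase, had 1.39, 2.65 and 0.122 FPKM in the NC pigs, in the same order as their adipocyte markers (83.6, 136.7 and 4.98 FPKM). In HFCF pigs 1 to 3 ALDH1L1 had 0.167, 0.429 and 0.154 FPKM, in the reverse order of their adipocyte markers (14.6, 7.61 and 21.2 FPKM). The log2 fold change of ALDH1L1, -1.56, was not called (adjusted p = 0.232, limma). NUPR1, a small stress-induced chromatin protein, had 49.1, 75.0 and 36.8 FPKM in the NC pigs and 78.9, 148.7 and 310.5 FPKM in the HFCF pigs, without overlap and with an adjusted p of 0.0516 (limma). XPOT, the exporter of tRNA from the nucleus, was 2.82 ± 0.194 FPKM in the NC group and rose to 6.23 ± 0.420 FPKM (SD, n = 3 each, adjusted p = 0.00474, limma). SLC7A11, the cystine transporter, had a mean under 0.1 FPKM and was not tested.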
